A study of Mus musculus with 16 samples.

Results

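The 10 genes described here encode subunits of voltage-gated calcium channels. They are the pore-forming alpha1 subunit genes Cacna1a, Cacna1b, Cacna1c, Cacna1d, Cacna1e, Cacna1h and Cacna1i, and the auxiliary alpha2delta subunit genes Cacna2d1, Cacna2d2 and Cacna2d3. They were picked by gene symbol, with no threshold on their values, from the 24982 gene entries of the count table. The choice was made with earlier results of these data known. It leaves out pore and alpha2delta genes with very low levels here, such as Cacna1f and Cacna2d4. All 10 passed the filter on low counts, which left 15507 genes to test.

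RNA was sequenced from lumbar dorsal root ganglia, which hold the cell bodies of the sensory neurons of the hind limb. Ganglia L4 to L6 of the injected side were taken from C57BL/6 mice aged 10 to 12 weeks, 14 days after an injection into the ankle joint. The 4 groups were knock-in (KI) mice named TrkA/C given CFA (complete Freund's adjuvant, which inflames the joint for weeks), TrkA/C KI mice given vehicle, wild-type (WT) mice given CFA and WT mice given vehicle. The sample titles call the vehicle groups Saline and the CFA groups MoAr. Each group had 4 libraries, and each library pooled 6 ganglia from 2 mice. The labels do not describe the knock-in construct. Ntrk3, which encodes the neurotrophin receptor TrkC, served as the check of genotype. The labels call the pools biological samples, and the sex of the mice and any shared litter are not given in the sources used here.

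Library totals ran from 22742209 to 40910947 counts. Ntrk3 had 99.1 to 138 TMM-normalised CPM (counts scaled to library size with TMM factors) in the 8 KI libraries and 29.3 to 61.4 CPM in the 8 WT libraries, with no overlap. The title of WT CFA library 1 says WT while one of its tags says knock-in. Its 48.4 CPM of Ntrk3 lie with WT, and it is treated as WT. All 6 pan-neuronal markers were tested, and their summed level was 12096 to 14401 CPM in KI and 13300 to 14877 CPM in WT libraries. Of these, 1 was called between KI and WT over both injections, the tubulin gene Tubb3 (log2 -0.16 ± 0.03, edgeR adjusted p = 0.00163), and 5 of 6 had a negative log2 fold change. WT vehicle library 4 stood apart over all genes. Its counts differed from the other 3 libraries of its group by a chi-square per degree of freedom of 22.8 to 50.2, against 4.51 to 17.1 for the other 21 pairs within groups. The differences of Cacna1i and the counts of signs are given with and without it. Other group means, ranges, shares and marker values include it.

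Voltage-gated calcium channels open when a neuron depolarises and let in calcium, which triggers transmitter release and feeds calcium signalling to the nucleus. High-voltage-activated channels comprise the P/Q-type (Cacna1a), N-type (Cacna1b), L-type (Cacna1c, Cacna1d) and R-type (Cacna1e) channels, while T-type channels (Cacna1h, Cacna1i) open at more negative potentials and set excitability near threshold. Alpha2delta subunits carry high-voltage-activated channels to the membrane and to presynaptic terminals. In sensory neurons the N-type channel is the target of ziconotide, and Cacna2d1 and Cacna2d2 products bind gabapentin and pregabalin.

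With edgeR, Cacna1i was the only member called between genotypes. It was called higher in KI over both injections (beside 8.96% of all genes) and with vehicle (beside 4.34%), but not with CFA. Its 8 KI libraries all lay above its 8 WT libraries, and the share of all genes without such overlap was not counted. Cacna1e had lower values in KI than in WT after CFA, but this did not pass the test over all genes. None of the 10 genes passed the test for CFA against vehicle in either genotype, or for a difference between genotypes in the response to CFA. The N-type and P/Q-type pore genes and all 3 alpha2delta genes passed in no comparison.

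The promoter windows of Cacna1i and Cacna1e are printed here because the genotype results turn on these genes. Cacna1i spans chr15:80287238-80398279 on the plus strand and Cacna1e spans chr1:154390731-154884501 on the minus strand (build GRCm38, the same assembly as mm10). Each window runs from 250 bases before to 50 bases after a RefSeq transcript start (GRCm38.p6), at chr15:80286988-80287287 for Cacna1i and at chr1:154725871-154726170 for Cacna1e. The Cacna1e window lies inside the gene span given above, and not at its 5' end (chr1:154884501 on the minus strand). Whether it is the promoter used in these ganglia was not tested. Capitals mark the core of the cAMP response element (TGACG on either strand).
Cacna1i: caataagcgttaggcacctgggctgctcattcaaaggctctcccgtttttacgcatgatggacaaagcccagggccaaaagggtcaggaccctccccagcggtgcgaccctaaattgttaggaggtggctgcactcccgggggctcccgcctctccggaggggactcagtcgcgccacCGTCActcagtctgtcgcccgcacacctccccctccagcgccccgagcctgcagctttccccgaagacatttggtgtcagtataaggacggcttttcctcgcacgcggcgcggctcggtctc
Cacna1e: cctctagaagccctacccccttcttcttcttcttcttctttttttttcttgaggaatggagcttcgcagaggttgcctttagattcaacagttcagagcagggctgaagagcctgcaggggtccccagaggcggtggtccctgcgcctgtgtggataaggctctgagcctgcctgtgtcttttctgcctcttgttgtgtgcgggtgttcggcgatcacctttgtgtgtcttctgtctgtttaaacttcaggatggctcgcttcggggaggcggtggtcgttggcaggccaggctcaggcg
The Cacna1i window held 1 such core, as did 20.8% of the 32851 promoter windows of the same length at least once, and the Cacna1e window held none. Neither window held a GC box (GGGCGG on either strand), which 35.7% of all windows held. Cacna2d1, the most abundant member per length, had 7 GC boxes in its window and a GC content of 80.0%, against 62.7% for Cacna1i and 55.3% for Cacna1e. GC boxes did not follow abundance throughout. A window of the scarce Cacna1d held 6 at a GC content of 87.3%, while another of its windows held 0 at 40.3%. The window of Cacna2d2 held 1. No link between motifs and levels was tested. A RefSeq window was found for 8 of the 10 members, and not for Cacna1a and Cacna1h.

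The members spanned a wide range of abundance. Levels per length were taken as CPM divided by the kilobases of annotated exon sequence of each gene, and averaged over 16 libraries. Cacna2d1 stood highest at 24.9 ± 2.4 CPM per kb (SD, n = 16), followed by the N-type pore gene Cacna1b at 21.4 ± 2.5 and the P/Q-type pore gene Cacna1a at 13.0 ± 1.2. The T-type gene Cacna1h, a known marker of mouse low-threshold mechanoreceptors, averaged 10.1 ± 1.7 CPM per kb. Cacna2d2, Cacna2d3 and the L-type gene Cacna1c lay together at 7.40 ± 0.68, 7.04 ± 0.39 and 6.70 ± 0.82 CPM per kb. Below them came Cacna1i at 2.17 ± 0.48, Cacna1d at 0.833 ± 0.134 and Cacna1e at 0.687 ± 0.220 CPM per kb. Between neighbours in this order, the ranges over the 16 libraries were separate for 1 pair, Cacna1c over Cacna1i. Within libraries, however, Cacna1b exceeded Cacna1a and Cacna1h exceeded Cacna2d2 in 16 of 16, whereas Cacna2d3 exceeded Cacna1c in 9 of 16. Exons of Cacna1d overlap those of Chdh on the opposite strand over 4.67% of their length, those of Cacna1a a transcript over 3.81%, those of Cacna1h Tpsg1 over 1.62% and those of Cacna2d2 a transcript over 1.03%, while the other 6 genes have no such overlap. With the longest annotated transcript as the length, Cacna2d3 moved to the 4th place, Cacna1c passed Cacna2d2 and Cacna1e passed Cacna1d. On that length the levels were 41.5 CPM per kb for Cacna2d1, 16.6 for Cacna2d3, 10.8 for Cacna1c, 10.1 for Cacna2d2 and 1.16 for Cacna1e, so that Cacna2d3 no longer lay with Cacna2d2 and Cacna1c.

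**Figure D1:**
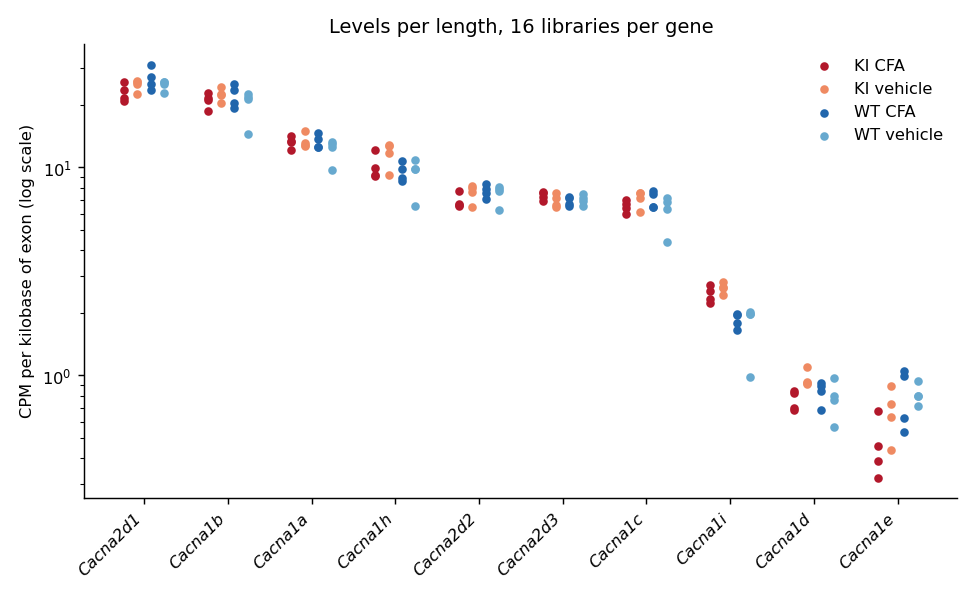
Level of each calcium channel gene per kilobase of exon (log axis) in each of the 16 libraries, with colours for the 4 groups, ordered by mean. Cacna2d1 and Cacna1b lie at the top, Cacna1d and Cacna1e at the bottom, and the KI points of Cacna1i lie above its WT points.

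Among the pore genes that are members, Cacna1b made up 38.6% of the summed alpha1 level per length in KI CFA, 38.1% in KI vehicle, 39.9% in WT CFA and 39.3% in WT vehicle ganglia (means, n = 4 each). Cacna1i supplied 4.51% ± 0.18 in KI CFA, 4.50% ± 0.24 in KI vehicle, 3.32% ± 0.13 in WT CFA and 3.35% ± 0.50 in WT vehicle ganglia (SD, n = 4 each). The share of Cacna1i was at least 4.17% in every KI library and at most 3.74% in every WT library. In WT vehicle library 4 it was 2.62%, against 3.42% to 3.74% in the rest of its group. For Cacna1e the mean share was 0.843% ± 0.242 in KI CFA, 1.13% ± 0.23 in KI vehicle, 1.42% ± 0.34 in WT CFA and 1.62% ± 0.21 in WT vehicle ganglia, and the ranges of KI and WT libraries overlapped. These shares cover mRNA per length and not channel protein. They leave out pore genes that are not members, such as Cacna1s. They were taken with the annotated exon length only, and not with the longest transcript.

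**Figure D2:**
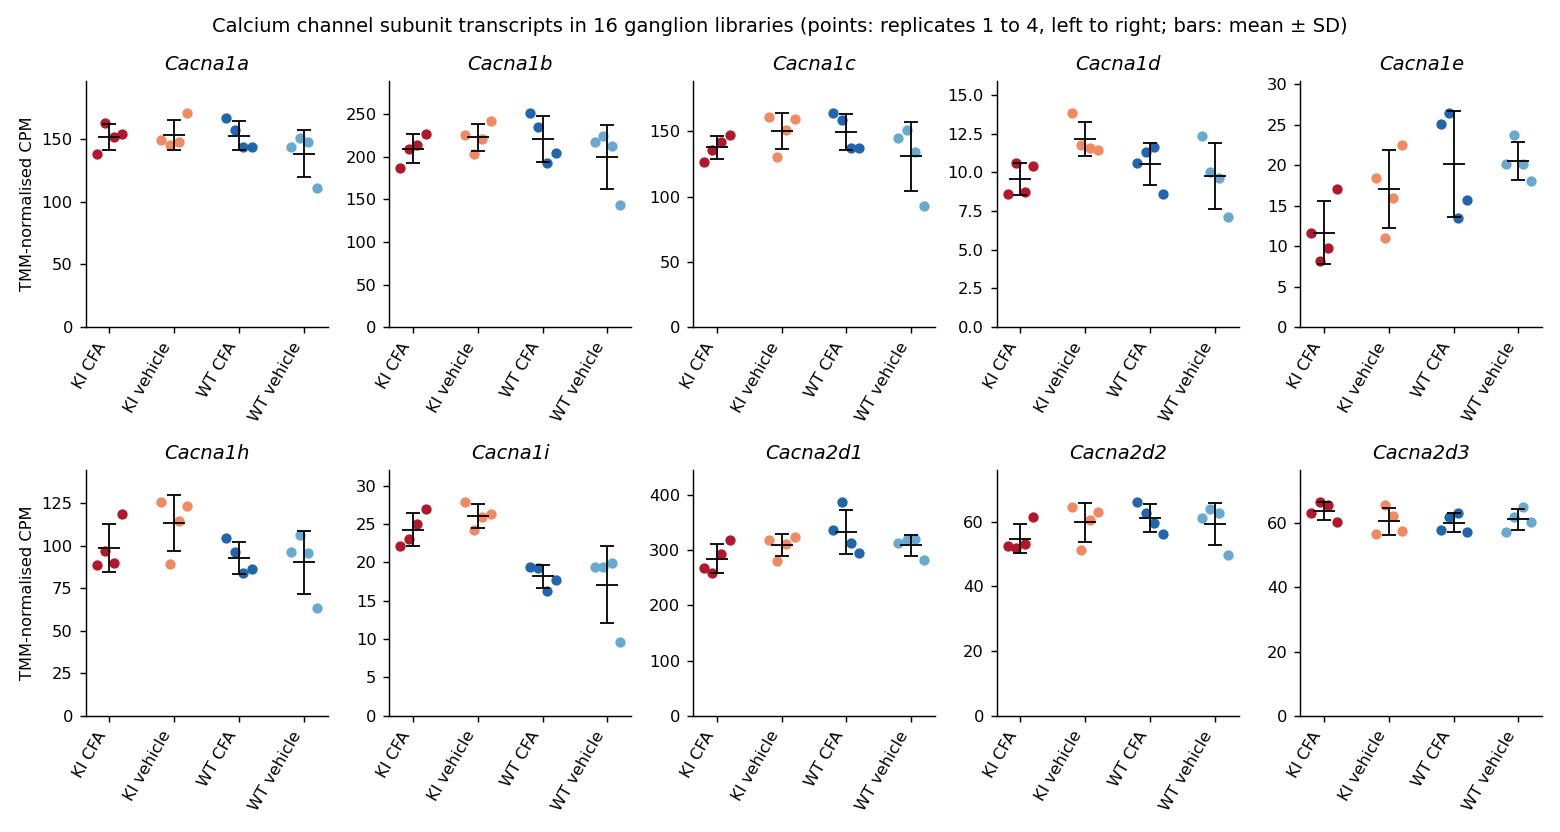
TMM-normalised CPM of the 10 calcium channel genes in 4 groups (points: replicates 1 to 4 from left to right; bars: mean ± SD, n = 4; vertical axes start at 0). KI points of Cacna1i lie at or above 22.1 CPM and its WT points at or below 19.9 CPM, and WT vehicle replicate 4 is the lowest point of its group for 9 of the 10 genes.

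The comparison of KI with WT asks which channel genes differ with the TrkA/C genotype. In vehicle-treated mice 1 of the 10 members was called, higher in KI, at a Benjamini-Hochberg adjusted p under 0.05 in edgeR's quasi-likelihood test, beside 4.34% of the 15507 genes tested. In CFA-treated mice 0 of 10 were called, beside 2.84% of all genes. At an unadjusted p under 0.05 there were 3 of 10 members and 3694 of 15507 genes with vehicle, and 3 of 10 members and 1963 genes with CFA. With CFA limma-voom called 2 and DESeq2 0 of the 10. Over the mean of both injections 1 of 10 was called, again higher in KI, beside 8.96% of all genes. A count of 1 in 10 is the smallest above 0 that these members can give, so nothing is read from it about the family as a whole. Median log2 fold changes of the 10 genes were 0.15 with vehicle and -0.10 with CFA, where the median of all tested genes was 0.0015 and 0.0021. Without WT vehicle library 4 the median with vehicle was 0.04, with 6 of 10 values positive against 8 of 10 with it.

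Cacna1i, which encodes the T-type pore with the slowest kinetics, had 22.1, 23.1, 25.0 and 26.9 CPM in KI CFA, 27.9, 24.2, 25.9 and 26.3 CPM in KI vehicle, 19.4, 19.3, 16.3 and 17.7 CPM in WT CFA, and 19.4, 19.4, 19.9 and 9.65 CPM in WT vehicle ganglia. Every KI value lay above every WT value, and WT vehicle library 4 was the lowest of all 16. Over both injections Cacna1i was higher in KI by a log2 fold change of 0.51 ± 0.11 (SE), or 1.43-fold, with an edgeR adjusted p of 0.00534. With vehicle the log2 fold change was 0.61 ± 0.15 (edgeR adjusted p = 0.0352), and with CFA it was 0.42 ± 0.15 (edgeR adjusted p = 0.199), which was not called although the groups did not overlap. The change of this genotype difference with CFA was not called (interaction log2 -0.19, 95% interval -0.64 to 0.27, edgeR adjusted p = 0.815), and without WT vehicle library 4 its estimate was 0.01.

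Leaving out any 1 of the 16 libraries kept the difference in Cacna1i over both injections called, with log2 fold changes of 0.42 to 0.55. Without WT vehicle library 4 it was 0.42 (edgeR adjusted p = 8.7e-05), and without WT CFA library 1, the library with the conflicting tag, it was 0.53 (edgeR adjusted p = 0.00904). The call with vehicle alone was less stable. It was lost without any 1 of the 4 KI vehicle libraries (edgeR adjusted p = 0.0507 to 0.0819). It was also lost with only the groups compared in the fit (adjusted p = 0.125), with a replicate block (adjusted p = 0.0509), with a skeletal muscle score as a covariate (adjusted p = 0.0608) and without both KI vehicle libraries 1 and 4 (adjusted p = 0.242). It held without WT vehicle library 4 at a log2 fold change of 0.41 (edgeR adjusted p = 0.0126). The CFA difference was called without WT vehicle library 4 (log2 0.42, edgeR adjusted p = 0.00270).

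Cacna1h, the main T-type gene of sensory neurons, had 88.7 to 119 CPM in KI CFA, 89.6 to 126 CPM in KI vehicle, 84.2 to 105 CPM in WT CFA and 63.6 to 106 CPM in WT vehicle ganglia, and these ranges overlapped. Its log2 fold change over both injections was 0.21 ± 0.10, which was not called (edgeR adjusted p = 0.197). The ratio of Cacna1i to Cacna1h CPM was 0.226 to 0.278 in KI CFA, 0.213 to 0.270 in KI vehicle, 0.186 to 0.204 in WT CFA and 0.152 to 0.208 in WT vehicle ganglia. This ratio did not overlap between the 8 KI and the 8 WT libraries, and its lowest value was that of WT vehicle library 4, where the other 3 libraries of the group had 0.183 to 0.208.

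The R-type pore gene had its largest differences after CFA. Cacna1e had 11.6, 8.14, 9.83 and 17.1 CPM in KI CFA, 18.5, 11.1, 16.0 and 22.6 CPM in KI vehicle, 25.1, 26.4, 13.4 and 15.7 CPM in WT CFA, and 20.2, 23.7, 20.1 and 18.0 CPM in WT vehicle ganglia. Its lowest values lay in KI CFA, but KI and WT ranges overlapped under both injections, and it was the member that varied most between libraries, by 3.25-fold from the lowest to the highest. With CFA its log2 fold change between KI and WT was -0.79 ± 0.24, with an edgeR adjusted p of 0.0996. Over both injections it was -0.53 ± 0.17 (edgeR adjusted p = 0.0577), and with vehicle -0.28 ± 0.24 (edgeR adjusted p = 0.514). None of these was called by edgeR. Limma-voom with quality weights called it with CFA (log2 -0.93, adjusted p = 0.0228) and over both injections (log2 -0.65, adjusted p = 0.00857). In edgeR the value with CFA was -1.03 without KI CFA library 4 (adjusted p = 0.0226) and -0.63 without WT CFA library 2 (adjusted p = 0.316). Over both injections Cacna1e was called without KI CFA library 4, KI vehicle library 4, WT CFA library 3 or WT vehicle library 4. The higher Cacna1e values of WT CFA lay in libraries 1 and 2. There the mean log2 CPM of 8 axon injury genes was 5.58 and 5.55, against 4.17 and 4.35 in WT CFA libraries 3 and 4. Over all 16 libraries, deviations of Cacna1e and of this mean from their group means had a Pearson correlation of only 0.10. Among WT vehicle libraries, library 4 had the highest such mean (4.68) and the lowest Cacna1e value (18.0 CPM). A covariate fit split the WT libraries by source number, which in WT CFA sets libraries 1 and 2 against 3 and 4. With it the edgeR log2 fold change of Cacna1e was -0.74 with CFA, not called, and -0.51 over both injections, called. That split is even within each WT group, so the fit could move the difference little. The part of the axon injury genes in the Cacna1e difference was not tested.

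The P/Q-, N- and L-type pore genes were not called between genotypes. Cacna1b averaged 209 ± 17 CPM in KI CFA, 223 ± 16 in KI vehicle, 221 ± 27 in WT CFA and 199 ± 37 CPM in WT vehicle ganglia (SD, n = 4 each). Its log2 difference between KI and WT over both injections was 0.04, with a 95% interval from -0.13 to 0.21. Cacna1a averaged 151 ± 10 CPM in KI CFA, 153 ± 12 in KI vehicle, 153 ± 12 in WT CFA and 138 ± 19 CPM in WT vehicle ganglia, with a log2 difference of 0.07 (95% interval -0.06 to 0.20). For both genes these intervals leave out a genotype difference as large as that of Cacna1i. Cacna1c, the cardiac and neuronal L-type gene, averaged 138 ± 9 CPM in KI CFA, 150 ± 14 in KI vehicle, 149 ± 14 in WT CFA and 131 ± 26 CPM in WT vehicle ganglia (log2 difference 0.04, 95% interval -0.13 to 0.21). Cacna1d, the L-type gene that opens at lower voltages, averaged 9.58 ± 1.05 CPM in KI CFA, 12.2 ± 1.1 in KI vehicle, 10.5 ± 1.3 in WT CFA and 9.78 ± 2.15 CPM in WT vehicle ganglia.

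The alpha2delta genes were not called either. Cacna2d1, which encodes the main gabapentinoid target in sensory neurons, had 268, 259, 294 and 318 CPM in KI CFA, 319, 280, 312 and 325 CPM in KI vehicle, 337, 388, 313 and 294 CPM in WT CFA, and 313, 319, 321 and 282 CPM in WT vehicle ganglia. The groups overlapped. With CFA its log2 fold change between KI and WT was -0.22 ± 0.08 (edgeR adjusted p = 0.197), and without WT CFA library 2, its highest library, it was -0.14. With vehicle it was 0.0018, with a 95% interval from -0.17 to 0.17. Cacna2d2 averaged 54.8 ± 4.5 CPM in KI CFA, 59.9 ± 6.0 in KI vehicle, 61.1 ± 4.3 in WT CFA and 59.4 ± 6.5 CPM in WT vehicle ganglia, and was not called. Cacna2d3, whose loss reduces heat pain responses in mice and flies, was the steadiest member, with 56.5 to 66.6 CPM over all 16 libraries and a log2 difference over both injections of 0.04 (95% interval -0.05 to 0.13).

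**Figure D3:**
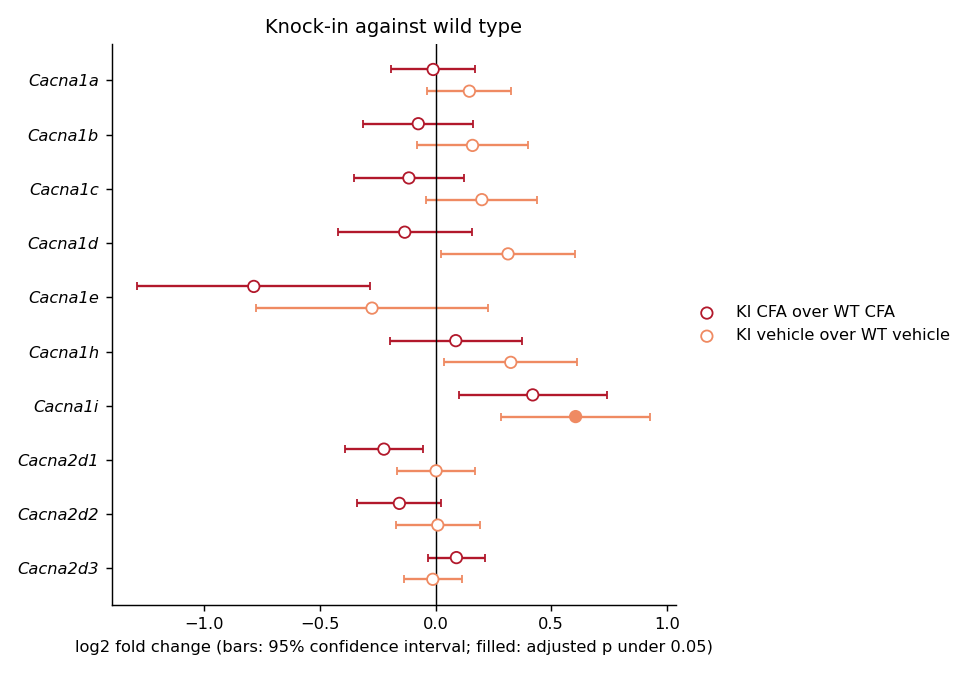
Log2 fold changes of the 10 genes for KI over WT, with CFA (red) and with vehicle (orange), with 95% confidence intervals from edgeR; a filled point has an adjusted p under 0.05. Cacna1i lies above 0 under both injections and is filled with vehicle (0.61), and Cacna1e lies farthest below 0 with CFA (-0.79).

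The comparison of CFA with vehicle asks whether joint inflammation was accompanied by a change in channel transcripts in the ganglia after 14 days. In KI mice 0 of 10 members were called, beside 0% of all genes tested. At an unadjusted p under 0.05 there were 2 of 10 members and 881 of 15507 genes. WT mice gave 0 of 10 members called, beside 0% of all genes, with 0 members and 1079 genes at an unadjusted p under 0.05. Over the mean of both genotypes 0 of 10 members were called, beside 0.0258% of all genes, with 0 members and 1019 genes at an unadjusted p under 0.05. DESeq2 and limma-voom also called 0 members in these comparisons, while DESeq2 called 15 genes in KI, 11 in WT and 57 over both genotypes.

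The pair of members with an unadjusted p under 0.05 in KI were Cacna1d and Cacna1e. Cacna1d had 8.59, 10.6, 8.76 and 10.4 CPM in KI CFA ganglia and 13.8, 11.8, 11.6 and 11.5 CPM in KI vehicle ganglia. The KI CFA libraries all lay below the KI vehicle libraries, and the log2 fold change was -0.34 ± 0.14 (edgeR adjusted p = 0.860). In WT it was 0.10 ± 0.14, and the difference between the genotypes in the CFA response was -0.45 (edgeR adjusted p = 0.718). Cacna1d counts were low, from 187 to 444 per library. Cacna1e had a log2 fold change of -0.54 ± 0.24 with CFA in KI (edgeR adjusted p = 0.869) and of -0.02 ± 0.24 in WT.

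Of the 10 members, 9 had a negative log2 fold change with CFA in KI (median -0.12) and 8 a positive one in WT (median 0.09), with all-gene medians of 0.00073 and -0.0052. Without WT vehicle library 4, 4 of 10 were positive in WT and the median was -0.03. The interaction of genotype and injection gave 0 of 10 members called, beside 0% of all genes, with 1 member and 976 genes at an unadjusted p under 0.05. Its estimates were negative for 9 of 10 members, with a median of -0.23, against 0.0037 over all genes. Without WT vehicle library 4, 8 of 10 were negative, with a median of -0.10. DESeq2 and limma-voom called 0 members for the interaction. The members move together between libraries, as set out next, so these counts of signs are not 10 separate observations.

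**Figure D4:**
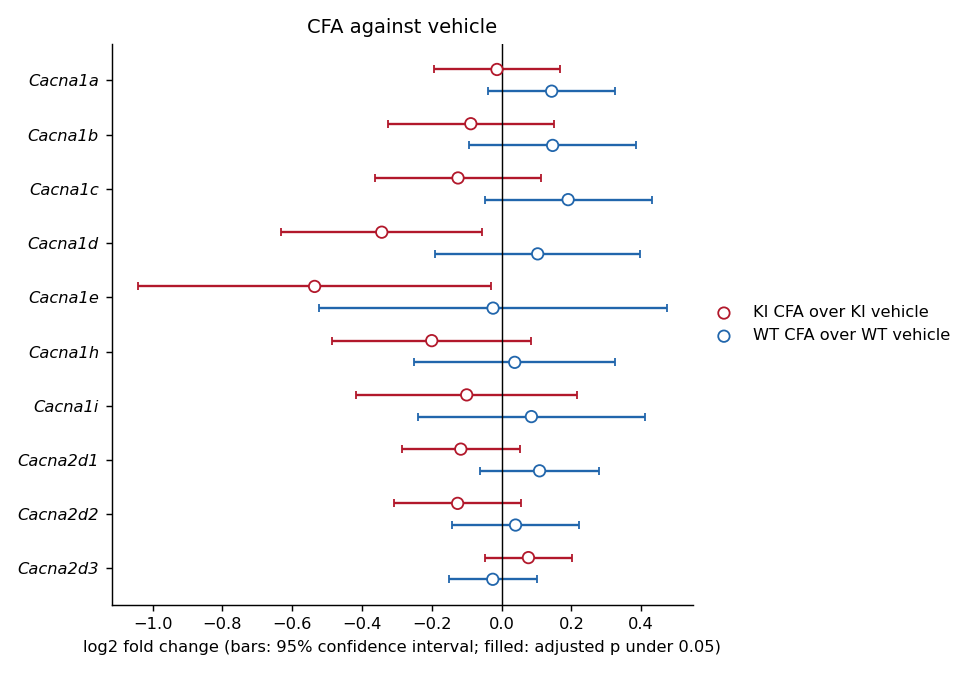
Log2 fold changes of the 10 genes for CFA over vehicle in KI (red) and in WT (blue) ganglia, with 95% confidence intervals from edgeR; no point is filled, since none had an adjusted p under 0.05. In KI 9 of 10 points lie below 0 and in WT 8 of 10 lie above 0 (4 of 10 without WT vehicle library 4), with the value farthest from 0, -0.54, for Cacna1e in KI.

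Within groups the members varied in step. Each log2 CPM was set against the mean of its group, and the 16 deviations of each gene were correlated with those of the others. Over the 36 pairs without Cacna2d3 the Pearson correlation was positive in every pair, with a median of 0.71 and a range from 0.18 to 0.97. All 9 pairs with Cacna2d3 were negative, with a median of -0.20. Without WT vehicle library 4 the median was 0.76 for pairs without Cacna2d3 and -0.47 for pairs with it. The points share libraries and group means, and the correlations are given as a description.

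WT vehicle library 4 lay below its group mean for 10 of 10 members, with a median deviation of -0.37 on the log2 scale, and held the lowest value of all 16 libraries for 7 members. The deviation was -0.76 for Cacna1i, -0.48 for Cacna1h, -0.45 for Cacna1b and -0.02 for Cacna2d3. Long transcripts as a whole were also low there. The mean log2 CPM of 1530 genes with at least 9802 bp of exon sequence, members left out, was 5.04 in that library, against 5.17 to 5.44 in the other 15. By group this long-gene score was 5.23 to 5.32 in KI CFA, 5.33 to 5.44 in KI vehicle, 5.17 to 5.36 in WT CFA and 5.04 to 5.28 in WT vehicle ganglia, so KI vehicle lay above WT vehicle with no overlap. The mean log2 CPM of the shortest genes by exon sequence, as large a share of all genes, was 2.69 in WT vehicle library 4, against 2.25 to 2.40 in the other 15.

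With the long-gene score as a covariate, an alternative chosen after seeing the data, the log2 fold change of Cacna1i between KI and WT was 0.29 over both injections (edgeR adjusted p = 0.0440), 0.38 with CFA (adjusted p = 0.0300) and 0.20 with vehicle (adjusted p = 0.588). Cacna1e stood at -0.82 over both injections (adjusted p = 0.00256) and -0.80 with CFA (adjusted p = 0.0159), and Cacna2d1 at -0.22 (adjusted p = 0.00579) and -0.24 (adjusted p = 0.0146), all called in edgeR. The difference of Cacna1i with vehicle, called without the score, was not called with it. The score itself was higher in KI vehicle than in WT vehicle ganglia, and its part in the result was not tested further.

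**Figure D5:**
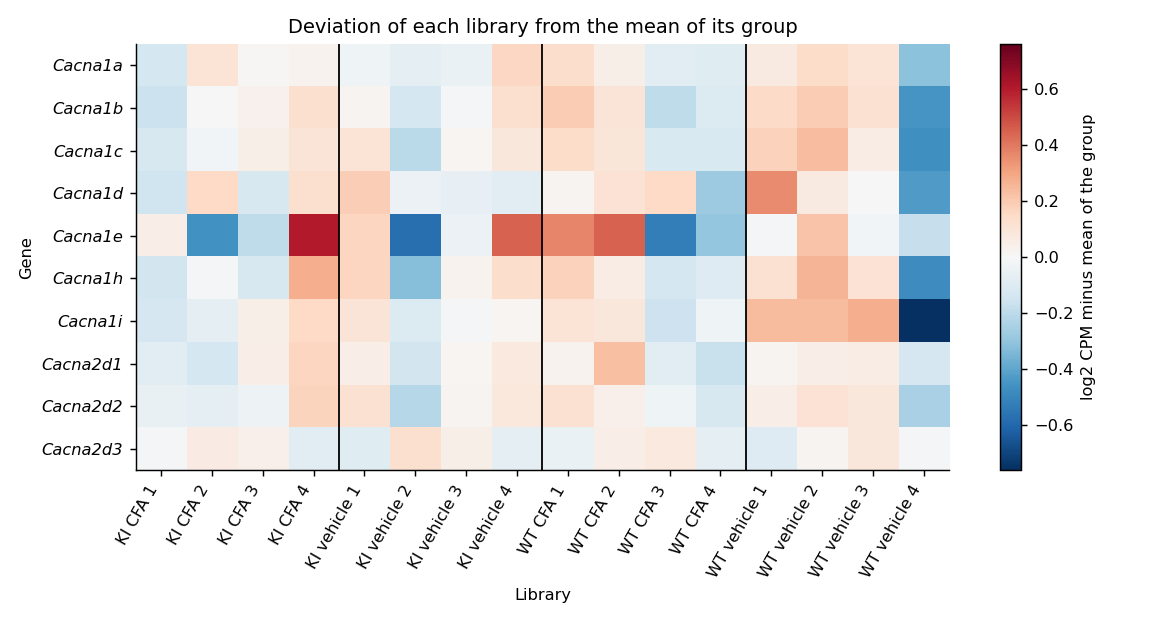
Deviation of the log2 CPM of each gene from the mean of its group, for the 10 calcium channel genes (rows) in the 16 libraries (columns), with red above and blue below the mean. WT vehicle 4 is the bluest column (-0.76 for Cacna1i), most genes share their colour within a library, and Cacna2d3 stays near 0.

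Markers of sensory neuron classes also differed between genotypes. The counts below stand beside 8.96% of all genes called over both injections. In a bulk ganglion, fewer cells of a type and less RNA per cell cannot be told apart. Over the mean of both injections, 5 of 7 markers of non-peptidergic nociceptors were higher in KI (edgeR adjusted p under 0.05), among them Mrgprd (log2 0.32 ± 0.05), a receptor of unmyelinated skin afferents. Their summed level was 2446 to 2702 CPM in KI CFA, 2399 to 2597 in KI vehicle, 2273 to 2335 in WT CFA and 1815 to 2209 CPM in WT vehicle ganglia, separate between KI and WT. Of the markers of C-fibre low-threshold mechanoreceptors 3 of 5 tested were higher, including Slc17a8 (log2 0.35 ± 0.08), a vesicular glutamate transporter. Their summed level overlapped between KI and WT, with 477 to 600 CPM in KI vehicle and 459 to 493 CPM in WT CFA ganglia. Gfra2 is in this list and in that of non-peptidergic nociceptors. Of 4 markers of A-delta low-threshold mechanoreceptors 2 were higher. Ntrk3, the gene that checks the genotype, was left out of the markers of A-fibres and proprioceptors, and of the other 6 markers 5 were higher, among them Pvalb (log2 0.93 ± 0.14), a calcium buffer of proprioceptors. Markers of peptidergic nociceptors went the other way. Of 7 such markers 7 were lower in KI, with a median log2 fold change of -0.55, among them Calca (log2 -0.81 ± 0.09), which encodes the neuropeptide CGRP. Their summed level was 1242 to 1490 CPM in KI and 1846 to 2859 CPM in WT libraries. WT vehicle library 4 had 152 CPM of Mrgprd and 1792 CPM of Calca. The rest of its group had 186 to 200 and 1025 to 1123 CPM. Of 8 genes of axon injury 2 were lower, Gal (log2 -1.24 ± 0.16) and Gap43 (log2 -0.74 ± 0.05), and 7 of 8 had a negative log2 fold change. The part of these shifts in the channel results was not tested.

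The genes whose log2 CPM was most like that of Cacna1i over the 16 libraries were Hdac9 (Pearson 0.962), Ptprm (0.959) and Fryl (0.955). These values span both genotypes and WT vehicle library 4, and are given as a description.

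Of 16 further calcium channel genes, 12 were tested. With vehicle 1 was called (beside 4.34% of all genes), with CFA 1 (beside 2.84%), and over the mean of both injections 3 (beside 8.96%), all higher in KI. These 3 were Cacng5, Cacng2 and Cacna1s, whose level went with that of muscle markers, as set out below. Cacng5, a transmembrane AMPA receptor regulatory protein of the gamma subunit family, had 28.3 to 32.2 CPM in KI CFA, 29.0 to 33.6 in KI vehicle, 22.2 to 25.2 in WT CFA and 22.7 to 26.2 CPM in WT vehicle ganglia. It was higher in KI with vehicle (log2 0.34 ± 0.07, edgeR adjusted p = 0.0109) and with CFA (log2 0.37 ± 0.07, edgeR adjusted p = 0.00541), and KI and WT libraries did not overlap. Cacng2, the gamma subunit called stargazin, was higher over both injections (log2 0.30 ± 0.09, edgeR adjusted p = 0.0372). The beta subunit genes, which bind the pore inside the cell, were not called. Cacnb1, the beta subunit that skeletal muscle also uses, had a log2 difference of -0.10 ± 0.06 over both injections (edgeR adjusted p = 0.264).

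Cacna1s, the pore of the skeletal muscle channel, was called over both injections (log2 2.22 ± 0.65, edgeR adjusted p = 0.0384). It had 8.69 CPM in KI vehicle library 1, 7.32 in library 4 and 1.40 in library 3, and at most 0.988 CPM in each of the other 13 libraries. The mean log2 CPM of 10 skeletal muscle markers was 5.74 in KI vehicle library 1, 5.98 in library 4 and 2.34 in library 3, and from -2.29 to 2.23 in the others. The muscle gamma subunit Cacng1 had 1.05 CPM in KI vehicle library 1, 0.649 CPM in library 4 and at most 0.380 CPM elsewhere. With this score as a covariate, the log2 fold change of Cacna1i between KI and WT over both injections was 0.55 (edgeR adjusted p = 0.0146), and with vehicle it was 0.66 and no longer called (edgeR adjusted p = 0.0608).

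Of 29 genes for partners and regulators of the channels, 28 were tested, with 2 called higher and 0 lower with vehicle, 0 higher and 2 lower with CFA, and 3 higher and 2 lower over both injections, beside the same shares of all genes as above. Stac, an adaptor protein that slows inactivation of L-type channels, had 76.6 to 94.9 CPM in KI CFA, 82.1 to 90.3 in KI vehicle, 102 to 120 in WT CFA and 93.7 to 107 CPM in WT vehicle ganglia. It was lower in KI with CFA (log2 -0.37 ± 0.07, edgeR adjusted p = 0.00478), whereas its relative Stac2 was higher over both injections (log2 0.26 ± 0.06, edgeR adjusted p = 0.0116). Stx1a, the syntaxin that binds N-type and P/Q-type channels at release sites, was lower with CFA (log2 -0.27 ± 0.06, edgeR adjusted p = 0.0238). Kcnma1, the calcium-activated BK potassium channel, was higher with vehicle (log2 0.48 ± 0.12, edgeR adjusted p = 0.0365). It had 26.6 CPM in WT vehicle library 4 and 35.7 to 44.9 CPM in the rest of that group. Lrp1, an endocytic receptor that aids alpha2delta trafficking, was also higher with vehicle (log2 0.47 ± 0.12, edgeR adjusted p = 0.0334). None of the tested genes of either list was called for CFA against vehicle or for the interaction, beside the background shares given above.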

How the data were processed

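Gene-level read counts from 16 poly-A RNA libraries were deposited by the authors as raw counts, whole numbers with no normalization, per the labels' protocols and from the values. Per the labels, libraries used 150 ng of RNA, 15 PCR cycles and single-end reads of 50 nt. The submitters' processing notes name HTSeq 0.6.1p1, TopHat2 2.1.1, SAMtools 1.5, Bowtie2 2.3.5.1, FastQC, bcl2fastq 2.20 and the mm10 build. How they were set, whether counting used strand and which annotation served are not given in the sources used here. Reads of overlapping genes on opposite strands therefore cannot be told apart, and PCR duplicates cannot be recognised. The run held 20 libraries on 3 lanes, and since no label links a library to its lane, no lane effect could be tested.

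Groups came from the sample titles. The tests used edgeR 4.0.16 (R 4.3.3): TMM factors, filterByExpr, 1 mean per group over all 16 libraries, the quasi-likelihood F test and Benjamini-Hochberg adjustment over 15507 genes, called under 0.05. The biological coefficient of variation was 11.8%. Standard errors were taken from the F statistic, intervals are 95%, and a prior count of 2 went into log2 CPM. The script was tested on simulated counts. Alternatives were RLE factors, no filter, DESeq2 1.42.0, limma-voom (limma 3.58.1), only the groups compared, a replicate block, a skeletal muscle score, a split of the WT libraries by source number, leaving out libraries, and, chosen after seeing the data, the long-gene score and the longest transcript as length. Exon lengths came from GENCODE M21 and promoters from RefSeq. The members and gene lists were chosen with earlier results of these data known. Named genes were all members, up to 6 called genes per list by smallest p and the muscle subunits. Totals of 22742209 to 40910947 counts set the counting error. No pair of libraries of the same group agreed within sampling noise (smallest chi-square per degree of freedom 4.51), and pairs between groups were not checked. Replicate numbers did not pair libraries. Of the peptidergic nociceptor markers, 1 is not reported here, and counts leave it out.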

Additional observations from a re-analysis of the deposited data

Results flagged for a closer look

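Within each group of 4 libraries, the highest and lowest value of each member were set against the others by Dixon's ratio, over 40 groups of values. Chance flags about 1 in 20 such groups, and 4 values were flagged. Cacna1i had 9.65 CPM in WT vehicle library 4, where the next lowest library of that group had 19.4 CPM. Cacna1b had 144 CPM in the same library, where the next lowest had 212 CPM. Cacna1d had 13.8 CPM in KI vehicle library 1, above 11.8 CPM in the next highest library of its group. Cacna2d2 had 61.5 CPM in KI CFA library 4, above 53.2 CPM in the next.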

How the results depend on the processing

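No called member changed sign under any alternative. The higher level of Cacna1i in KI over both injections was called under all 9 alternatives with a value (log2 0.29 to 0.55) and in all 16 fits that left out 1 library (0.42 to 0.55). With vehicle, 0 members were called with only the groups compared, with the replicate block, with the muscle score, without both KI vehicle 1 and 4, and with the long-gene score, and 0 to 1 when 1 library was left out. With CFA, limma-voom called 2 members (Cacna1e, Cacna1i), the fit of only the groups compared 1 (Cacna1i), the long-gene score 3 (Cacna1e, Cacna1i, Cacna2d1), and fits without 1 library 0 to 1. Over both injections, limma-voom, the WT split and leaving out both KI vehicle libraries each gave 2 (Cacna1e, Cacna1i), the long-gene score 3, and fits without 1 library 1 to 2. In every comparison of CFA with vehicle and the interaction, 0 members were called under each alternative.

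Counts over all genes moved more. For KI against WT with vehicle (673 genes), DESeq2 called 1476, the fit of only the groups compared 214, the muscle score 309, the WT split 1999, leaving out both KI vehicle libraries 132, the long-gene score 154, and fits without 1 library 284 to 905. With CFA (441) they were 667 with DESeq2, 721 with the long-gene score and 241 to 652 without 1 library. Over both injections (1390) they were 816 with the muscle score, 2171 with the WT split and 778 without both KI vehicle libraries. For CFA against vehicle in KI (0), DESeq2 called 15, the fit of only the groups compared 1 and fits without 1 library 0 to 53; in WT (0), DESeq2 called 11, limma-voom 1 and fits without 1 library 0 to 2. Over both genotypes (4), it was 2 with no filter, 57 with DESeq2, 7 with limma-voom, 1 with the replicate block, 0 with the muscle score, 0 without both KI vehicle libraries, 17 with the long-gene score and 0 to 39 without 1 library. The causes were not tested.

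Same-numbered libraries did not deviate together (24 correlations from -0.21 to 0.13, with 3 of 16 libraries closest to their own number), so the replicate block is a fit and not a pairing. It took the members called with vehicle to 0 and changed no other count of members. With 4 libraries a group and 187 to 444 counts, Cacna1d is the member with the widest counting error.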

Other observations

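Ratios between members were taken within each library. The CPM ratio of Cacna1e to Cacna1b was 0.0555 ± 0.0164 in KI CFA, 0.0755 ± 0.0165 in KI vehicle, 0.0899 ± 0.0197 in WT CFA and 0.105 ± 0.015 in WT vehicle ganglia (SD, n = 4 each). The ratio of Cacna2d1 to Cacna1b was 1.36 ± 0.09 in KI CFA, 1.39 ± 0.03 in KI vehicle, 1.51 ± 0.15 in WT CFA and 1.58 ± 0.25 in WT vehicle ganglia. In WT vehicle library 4 it was 1.96, the highest of all 16. None of these ratios was tested.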
